A study of Homo sapiens with 33 samples.

Results

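The genes described here are 42 genes of homologous recombination and of the Fanconi anaemia pathway, taken by symbol from the 58302 genes of the expression matrix. All 42 were found, and all 42 passed the filter that left 17803 genes for testing, which asks for a value of 100 or more in at least 1 library, in counts per 20000000 reads (CP20M). RNA-seq was done on 6 established cell lines, with 33 libraries in all. H2052, H2452, H28 and MSTO-211H are lines of malignant pleural mesothelioma (MPM) that are sensitive to palbociclib, an inhibitor of CDK4 and CDK6. The drug-resistant lines are MPP89, an MPM line whose RB1 is mutated, and MeT-5A, made from mesothelial cells by immortalization with SV40. Each pair of libraries came from cells given 0.1% DMSO and cells given 1 µM palbociclib for 9 or 10 days in the same experiment, with 2 pairs of H2052, 3 each of H2452, H28 and MSTO-211H, 2 of MPP89 and 1 of MeT-5A. For each sensitive line, palbociclib was also withdrawn for 48 hours in a single experiment, that of 10 days (washout), and MeT-5A has 1 untreated library besides. Replicates are repeat experiments on a line, so the p-values over them measure the spread between cultures of these lines and not between tumours.

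Homologous recombination repairs a broken DNA end by copying from an intact sister DNA, and it works mainly in cells that have replicated their DNA. Broken ends are first cut back, strand exchange is then prepared with the help of BRCA proteins and paralog complexes, and the joined DNA molecules are finally resolved by helicases and nucleases. The Fanconi pathway deals with crosslinked DNA, where a core complex marks the FANCI and FANCD2 pair with ubiquitin, and many genes of both systems are E2F targets that are transcribed most in cycling cells.

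Promoters are shown for the pair of members with the deepest falls under palbociclib, EXO1 and BARD1, and for the pair with the smallest changes, ATM and RAD50, so that their sequences can be read beside the values below. Each window of 300 bases holds 250 bases before and 50 after a transcript start, read 5′ to 3′ from RefSeq on GRCh38.p14. The windows lie at chr1:241847954-241848253 (plus strand) for EXO1, at chr2:214809634-214809933 (minus strand) for BARD1, at chr11:108222817-108223116 (plus strand) for ATM and at chr5:132556727-132557026 (plus strand) for RAD50. EXO1 and ATM have 2 listed windows each, of which the first is shown. Capitals mark a match to an E2F motif or to a CHR element, both of which are sequences of cell cycle promoters.
EXO1: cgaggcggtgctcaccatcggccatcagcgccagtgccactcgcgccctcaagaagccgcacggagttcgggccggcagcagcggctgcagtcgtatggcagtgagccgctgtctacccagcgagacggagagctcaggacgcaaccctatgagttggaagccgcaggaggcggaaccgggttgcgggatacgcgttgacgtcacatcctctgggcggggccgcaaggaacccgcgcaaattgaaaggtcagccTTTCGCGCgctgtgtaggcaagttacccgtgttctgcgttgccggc
BARD1: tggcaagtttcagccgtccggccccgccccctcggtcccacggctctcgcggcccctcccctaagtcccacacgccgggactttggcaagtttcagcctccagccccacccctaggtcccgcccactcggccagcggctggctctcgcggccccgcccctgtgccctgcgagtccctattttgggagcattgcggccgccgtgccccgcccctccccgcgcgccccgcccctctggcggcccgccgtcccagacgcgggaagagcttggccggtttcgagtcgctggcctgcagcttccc
ATM: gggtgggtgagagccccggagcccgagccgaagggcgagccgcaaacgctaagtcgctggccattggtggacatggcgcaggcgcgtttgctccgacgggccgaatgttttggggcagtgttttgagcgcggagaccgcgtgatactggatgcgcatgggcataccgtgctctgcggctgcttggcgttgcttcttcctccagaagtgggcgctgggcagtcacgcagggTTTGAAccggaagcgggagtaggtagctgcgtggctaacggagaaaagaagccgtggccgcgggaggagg
RAD50: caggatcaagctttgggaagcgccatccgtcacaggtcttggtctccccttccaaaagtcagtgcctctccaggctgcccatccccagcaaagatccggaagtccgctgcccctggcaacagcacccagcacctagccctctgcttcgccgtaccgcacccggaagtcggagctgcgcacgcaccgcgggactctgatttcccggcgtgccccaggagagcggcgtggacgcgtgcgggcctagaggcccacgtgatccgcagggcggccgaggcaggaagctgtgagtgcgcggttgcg
EXO1 has an E2F match of the form TTTCGCGC that starts at base 5 after the transcript start, and ATM has a CHR match of the form TTTGAA that starts 20 bases before it. Neither motif was found in the windows of BARD1 and RAD50, whose GC content was 73.7% and 66.7%, against 65.0% for EXO1 and 64.3% for ATM. The E2F forms searched on both strands were TTTCCCGC, TTTCGCGC, TTTGCCGC and TTTGGCGC, and the CHR forms were TTTGAA and TTCGAA. No E2F form contains a CHR form. RefSeq windows were matched for 38 of the 42 members, all except RAD54B, FANCI, NBN and RMI2. An E2F form was found in 9 of these 38 members (23.7%), against 1090 of 27305 genes (3.99%), and in 9 of 52 member windows (17.3%), against 1164 of 35116 windows of the same length (3.31%). The members with an E2F form were EXO1, FANCA, FANCC, FANCD2, GEN1, HELLS, RMI1, TOPBP1 and XRCC2, and all 9 were among the 23 matched members called lower under palbociclib, against 0 of the 15 other matched members. A CHR form was found in 5 of the 38 members (13.2%), against 19.5% of all genes, and in 5 of the 52 member windows (9.62%), against 16.4% of all windows. These 5 were ATM, BRIP1, FANCC, GEN1 and UBE2T, that is 4 of the 23 called and 1 of the 15 other matched members. The split of either motif between called and other genes is not given here for all genes, so these counts only describe the members. A match is a description of the letters in these windows and not a binding site.

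Each library added up to between 20007662 and 20021400 CP20M because the authors had scaled it to 20000000 reads, and the depth itself was recovered for 22 of the 33 libraries, at 12770000 to 19825000 reads. A single read was then worth up to 1.57 CP20M, so that the lowest member values, 15 CP20M for FANCE and RMI2, rest on few reads. The DMSO libraries of a line were not all at one level. Of the pair in H2052, replicate 2 had 39 of 42 members below replicate 1 (median difference -0.67 on the log2 scale), and with only this pair neither can be called the one that stands apart. In MSTO-211H, replicate 2 was low (34 of 42 members below the mean of the other DMSO libraries, median -0.49) and replicate 3 high (0.41), and in H2452 replicate 2 also had 34 of 42 below (-0.20). Among the palbociclib libraries, the widest departures were those of H28, at 0.40 for replicate 2 and -0.42 for replicate 3. Of 10 mesothelial markers, 9 reached 100 CP20M in some library, with WT1 at that level in 29 of 33 libraries, BNC1 in 26 and MSLN in 24, whereas KRT5 reached at most 22. WT1 and KRT19 were listed at 0 in the DMSO library of MeT-5A, and MSLN had a DMSO mean of 4.33 CP20M in H28. Of 6 immune markers, CD14 was at 100 CP20M or more in 14 libraries (at most 1130), PTPRC reached at most 42, and CD3E was listed at 0 in all 33.

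**Figure D1:**
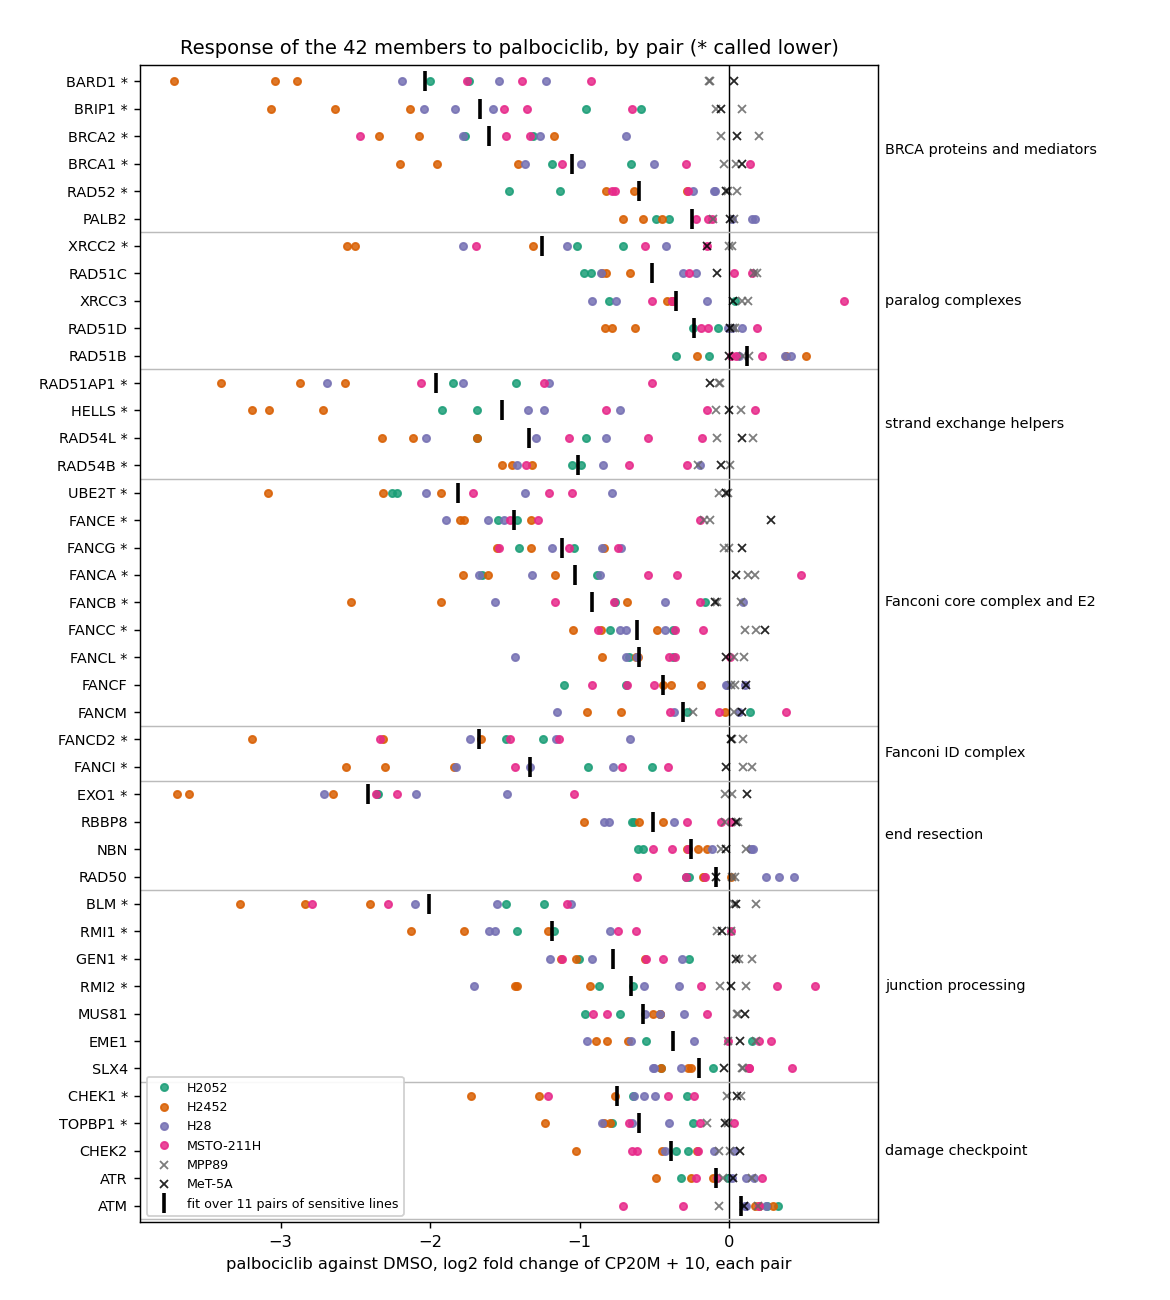
Log2 fold change of CP20M + 10 for palbociclib against DMSO (x axis) of each of the 42 members (y axis, grouped by role, a star marks a member called lower over the 11 pairs), with a point for each pair, coloured by line, crosses for the resistant lines and a black bar for the fit over the 11 pairs. Most points of the sensitive lines lie left of 0, out to -3.71 for BARD1 in H2452, the lowest fit is -2.42 for EXO1, and the crosses of MPP89 and MeT-5A stay within 0.28 of 0.

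Over the 11 pairs of the sensitive lines, 26 of the 42 members were lower under palbociclib and 0 were higher (limma, Benjamini-Hochberg FDR below 0.05 and a fold change of more than 1.5), where 9.37% of all 17803 genes were called lower and 5.58% higher. The median log2 fold change of the members was -0.70, with a range of -2.42 to 0.12, and that of all genes tested was -0.11. The exonuclease gene EXO1 had the deepest fall, followed by BARD1, the partner of BRCA1, and by the helicase gene BLM. A further 9 members had an FDR below 0.05 with a smaller fold change, and 7 had a higher FDR, which were RAD51B, RAD51D, FANCM, RAD50, SLX4, ATM and ATR. The difference was negative in 11 of 11 pairs for 19 members, in 10 for 10 members and in 7 to 9 for 11 members, whereas RAD51B was lower in 3 pairs and ATM in 2. Lines differed in level, so no member had all 11 palbociclib libraries below all 11 DMSO libraries. Within lines, every palbociclib library was below every DMSO library in all 4 lines for 11 members, in 3 lines for 16, in 2 for 8 and in 1 for 6, and ATM was in none. Shares of all genes with such signs or such separation are not given here, so these counts only describe the members. Without the pair labelled replicate 2 of H2052 or of MSTO-211H, 25 and 27 members were called lower. With median-of-ratios scaling the median of all genes moved from -0.11 to 0.04, the split of all calls moved from 1669 lower and 994 higher (62.7% lower) to 965 and 1646 (37.0% lower), and the members went from 26 to 20 lower, with 0 higher and a median of -0.54 in place of -0.70.

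In these bulk libraries, fewer cells in S phase and less RNA per cell cannot be told apart. The 16 proliferation markers, among them MKI67, TOP2A and the MCM genes, were all lower over the same 11 pairs, with a median of -1.98. Their summed level in H2052 went from 28369 to 54344 CP20M in DMSO to 10057 to 16502 under palbociclib, and in H2452 from 32754 to 42006 to 5094 to 7347. In H28 it went from 50276 to 67139 to 19385 to 25104. In MSTO-211H the ranges were 18328 to 43667 and 13105 to 19671 CP20M and overlapped. Their part in the changes of the members was not tested.

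**Figure D2:**
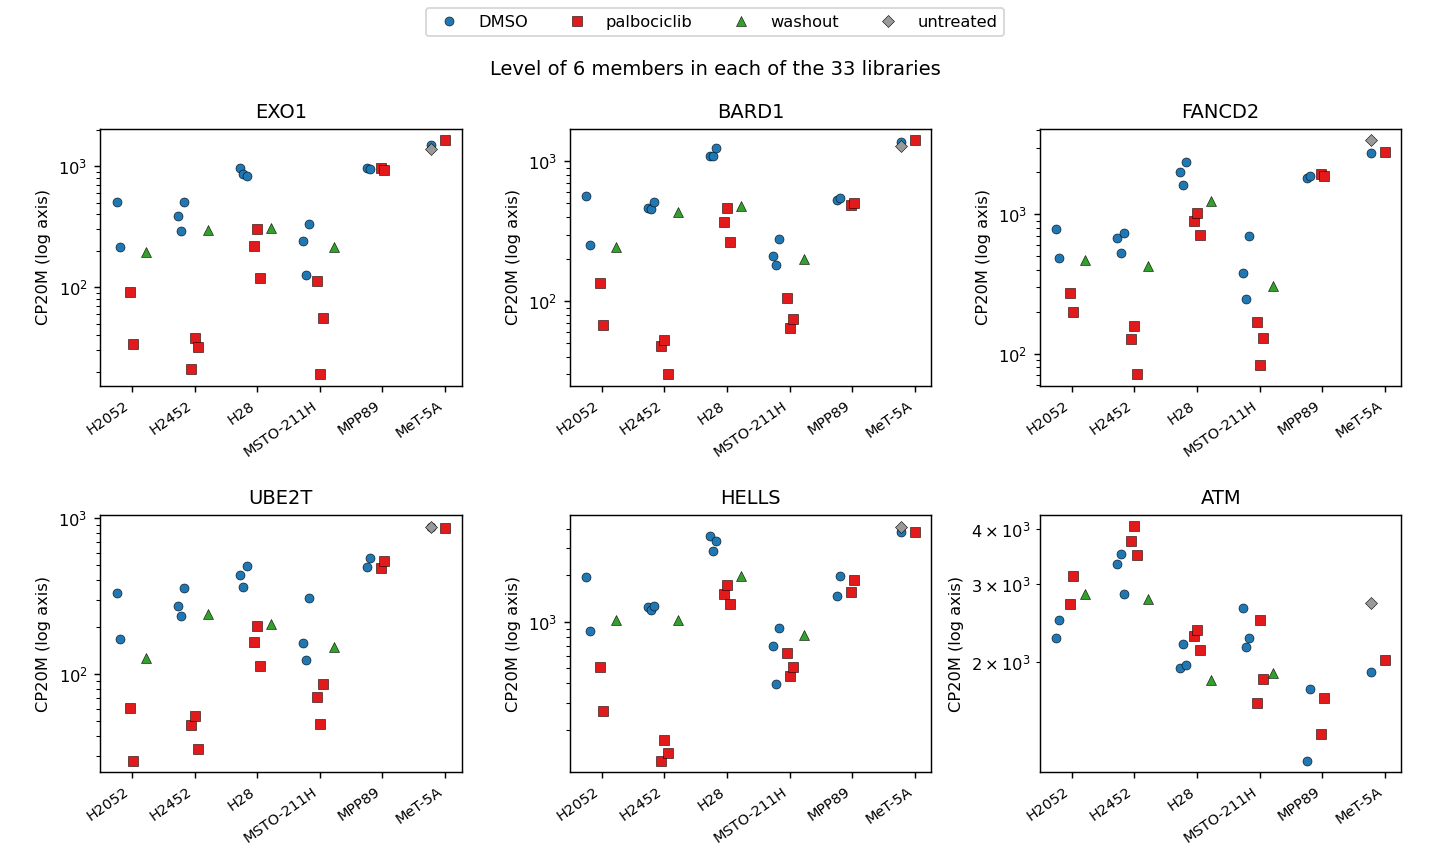
Level in CP20M (y axis, log scale) of EXO1, BARD1, FANCD2, UBE2T, HELLS and ATM in each of the 33 libraries, by line (x axis) and condition (circles DMSO, squares palbociclib, triangles washout, diamond untreated). EXO1, BARD1, FANCD2 and UBE2T have every palbociclib library below every DMSO library in the 4 sensitive lines, HELLS overlaps in MSTO-211H, and ATM has higher palbociclib values in H2052.

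Among the BRCA proteins and mediators, which act after the broken end has been cut back, 5 of 6 members were lower, with a median of -1.33. BARD1 (ENSG00000138376, chromosome 2 from 214725646 to 214809683, minus strand of GRCh38 in GENCODE 44), which forms a ubiquitin ligase with BRCA1, was at 1088, 1098 and 1255 CP20M in H28, 210, 183 and 277 in MSTO-211H, 466, 458 and 515 in H2452 and 567 and 251 in H2052 in DMSO. With palbociclib, BARD1 was at 368, 464 and 267 CP20M in H28, 106, 64 and 75 in MSTO-211H, 48, 53 and 30 in H2452 and 134 and 68 in H2052. All palbociclib libraries were below all DMSO libraries within each of the 4 lines, and 8 of the 11 were below every DMSO library of any sensitive line. The log2 fold change of BARD1 was -2.04 ± 0.23 (SE), adjusted p = 1.64e-05, a 4.1-fold lower level. PALB2, which links BRCA1 to BRCA2, is the member of this group with the smallest change and was at 717, 818 and 627 CP20M in H28, 493, 558 and 463 in MSTO-211H, 481, 391 and 489 in H2452 and 344 and 266 in H2052 in DMSO. With palbociclib, PALB2 was at 808, 829 and 697 CP20M in H28, 421, 506 and 426 in MSTO-211H, 290, 259 and 355 in H2452 and 242 and 199 in H2052. It separated the conditions in H2052 and H2452 and overlapped in H28 and MSTO-211H, with a log2 fold change of -0.25 ± 0.09 (SE), adjusted p = 0.0325. BRIP1, a helicase that binds BRCA1, fell by 3.18-fold (-1.67 ± 0.21 (SE), adjusted p = 3.72e-05). BRCA2, the mediator that acts at resected ends, ranged from 201 to 1464 CP20M (median 1075) in DMSO and from 65 to 664 (median 279) with palbociclib, separated in all 4 lines (-1.61 ± 0.15 (SE), adjusted p = 3.95e-06). BRCA1 ranged from 381 to 1882 CP20M (median 1097) in DMSO and from 238 to 1012 (median 460) with palbociclib, and separated in all lines but MSTO-211H (-1.05 ± 0.18 (SE), adjusted p = 0.00048). RAD52, an annealing protein, had a change at the edge of the fold threshold (-0.60 ± 0.13 (SE), adjusted p = 0.00171).

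Of the 5 genes of the paralog complexes, which act before strand exchange, only XRCC2 was called, and the median of the group was -0.35. XRCC2 (ENSG00000196584, chromosome 7 from 152644776 to 152676193, minus strand) was at 944, 1063 and 1118 CP20M in H28, 272, 183 and 433 in MSTO-211H, 490, 365 and 488 in H2452 and 243 and 93 in H2052 in DMSO. With palbociclib, XRCC2 was at 440, 791 and 318 CP20M in H28, 181, 164 and 127 in MSTO-211H, 75, 141 and 78 in H2452 and 115 and 53 in H2052. It was lower throughout in H2452, H28 and MSTO-211H, and replicate 1 with palbociclib overlapped replicate 2 of DMSO in H2052 (-1.25 ± 0.21 (SE), adjusted p = 0.000391). RAD51B had the opposite sign, at 47, 72 and 64 CP20M in H28, 145, 137 and 115 in MSTO-211H, 105, 133 and 119 in H2452 and 92 and 90 in H2052 in DMSO. With palbociclib, RAD51B was at 66, 76 and 86 CP20M in H28, 150, 161 and 116 in MSTO-211H, 140, 194 and 101 in H2452 and 83 and 68 in H2052. Only H2052 separated, with lower palbociclib values, and the change over the 11 pairs was within the spread (0.12 ± 0.10 (SE), adjusted p = 0.329). RAD51C (-0.52 ± 0.12 (SE), adjusted p = 0.00309) and XRCC3 (-0.35 ± 0.13 (SE), adjusted p = 0.0346) had smaller changes than the threshold, and RAD51D did not pass either criterion (-0.24 ± 0.10 (SE), adjusted p = 0.0699). XRCC3 shares 76.7% of its exon length with KLC1 on the other strand, and the strand setting of the counting is not given in the sources used here.

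All 4 strand exchange helpers were lower, with a median of -1.43. RAD51AP1 (ENSG00000111247, chromosome 12 from 4538798 to 4560047, plus strand), which stimulates the pairing of DNA strands, was at 364, 338 and 397 CP20M in H28, 190, 89 and 349 in MSTO-211H, 355, 281 and 391 in H2452 and 421 and 197 in H2052 in DMSO. With palbociclib, RAD51AP1 was at 99, 141 and 53 CP20M in H28, 130, 32 and 76 in MSTO-211H, 40, 39 and 28 in H2452 and 110 and 67 in H2052. The groups were separate in H2052, H2452 and H28, and the lowest DMSO value of MSTO-211H lay among its palbociclib values. The level was 3.9-fold lower (-1.96 ± 0.23 (SE), adjusted p = 2.24e-05). RAD54B, a motor protein of the same step, had the smallest fall of the group and was at 427, 402 and 527 CP20M in H28, 160, 86 and 195 in MSTO-211H, 149, 147 and 142 in H2452 and 332 and 235 in H2052 in DMSO. With palbociclib, RAD54B was at 233, 350 and 191 CP20M in H28, 97, 69 and 70 in MSTO-211H, 48, 53 and 43 in H2452 and 162 and 108 in H2052. It separated in the same 3 lines (-1.01 ± 0.14 (SE), adjusted p = 6.25e-05), and 66.0% of its exon length is shared with FSBP on the same strand, so that reads of these genes may be mixed. RAD54L, its close relative, fell in each line without overlap (-1.34 ± 0.18 (SE), adjusted p = 8.01e-05). HELLS, a chromatin remodeller, fell over the 11 pairs with a wide standard error (-1.52 ± 0.29 (SE), adjusted p = 0.000949) and is described with the differences among lines.

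Of the 9 genes of the Fanconi core complex and its ubiquitin-conjugating enzyme, 7 were lower, with a median of -0.92. UBE2T (ENSG00000077152, chromosome 1 from 202331544 to 202341984, minus strand), that enzyme, was at 430, 359 and 492 CP20M in H28, 158, 124 and 305 in MSTO-211H, 274, 234 and 354 in H2452 and 329 and 167 in H2052 in DMSO. With palbociclib, UBE2T was at 161, 204 and 113 CP20M in H28, 71, 48 and 86 in MSTO-211H, 47, 54 and 33 in H2452 and 61 and 28 in H2052. No line overlapped, and 9 of 11 palbociclib libraries were below every DMSO library of the sensitive lines. The log2 fold change was -1.81 ± 0.18 (SE), adjusted p = 8.49e-06, a 3.52-fold lower level. FANCM, the translocase that anchors the core complex to DNA, was at 206, 157 and 177 CP20M in H28, 279, 171 and 254 in MSTO-211H, 253, 213 and 210 in H2452 and 266 and 147 in H2052 in DMSO. With palbociclib, FANCM was at 157, 165 and 74 CP20M in H28, 266, 226 and 191 in MSTO-211H, 126, 209 and 123 in H2452 and 217 and 163 in H2052. Only H2452 separated, and the change did not pass the test (-0.31 ± 0.14 (SE), adjusted p = 0.0778). FANCE, which bridges the core complex to FANCD2, fell in every line without overlap (-1.44 ± 0.14 (SE), adjusted p = 5e-06), and so did FANCG, a scaffold subunit (-1.12 ± 0.09 (SE), adjusted p = 2.13e-06). FANCA, the partner of FANCG, fell with separation in all lines but MSTO-211H (-1.03 ± 0.18 (SE), adjusted p = 0.000524), and it shares 19.6% of its exon length with ZNF276 on the other strand. FANCB (-0.92 ± 0.22 (SE), adjusted p = 0.00365), FANCC (-0.62 ± 0.09 (SE), adjusted p = 8.7e-05) and the ubiquitin ligase subunit FANCL (-0.60 ± 0.10 (SE), adjusted p = 0.000393) were also called lower. FANCF, an adaptor subunit, had a smaller change (-0.44 ± 0.11 (SE), adjusted p = 0.00583).

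Both members of the ID complex, the target of that ubiquitin mark, were lower, with a median of -1.50. FANCD2 (ENSG00000144554, chromosome 3 from 10026370 to 10101932, plus strand) was at 2008, 1624 and 2373 CP20M in H28, 381, 247 and 697 in MSTO-211H, 677, 523 and 730 in H2452 and 789 and 486 in H2052 in DMSO. With palbociclib, FANCD2 was at 895, 1024 and 707 CP20M in H28, 168, 83 and 130 in MSTO-211H, 128, 159 and 71 in H2452 and 274 and 199 in H2052. The conditions did not overlap within any line, although H28 with palbociclib stayed above most DMSO libraries of the other lines. The fall was 3.19-fold (-1.67 ± 0.19 (SE), adjusted p = 1.74e-05). Its partner FANCI was at 3151, 2588 and 3410 CP20M in H28, 1052, 719 and 1650 in MSTO-211H, 1574, 1350 and 1790 in H2452 and 1202 and 726 in H2052 in DMSO. With palbociclib, FANCI was at 1247, 1503 and 955 CP20M in H28, 791, 434 and 605 in MSTO-211H, 311, 370 and 295 in H2452 and 619 and 504 in H2052. Overlap was seen in MSTO-211H only (-1.33 ± 0.19 (SE), adjusted p = 0.000109). BRCA1, CHEK2 and FANCD2 have pseudogene copies in the genome, among which reads could have been split.

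In end resection, 1 of 4 members was lower, and the median was -0.38. EXO1 (ENSG00000174371, chromosome 1 from 241847967 to 241895148, plus strand), the long-range nuclease whose promoter is shown above, was at 964, 860 and 829 CP20M in H28, 241, 125 and 330 in MSTO-211H, 391, 291 and 504 in H2452 and 509 and 215 in H2052 in DMSO. With palbociclib, EXO1 was at 218, 300 and 118 CP20M in H28, 112, 19 and 56 in MSTO-211H, 21, 38 and 32 in H2452 and 92 and 34 in H2052. Palbociclib libraries were below DMSO libraries in all 4 lines, and 9 of the 11 were below every DMSO library. With a log2 fold change of -2.42 ± 0.21 (SE), adjusted p = 2.8e-06, EXO1 was 5.34-fold lower. RAD50, the ATPase of the complex that first binds a broken end, had the smallest change of the group and was at 2258, 2860 and 2393 CP20M in H28, 2055, 3069 and 2108 in MSTO-211H, 3343, 3196 and 3333 in H2452 and 2392 and 2491 in H2052 in DMSO. With palbociclib, RAD50 was at 3058, 3610 and 2837 CP20M in H28, 1339, 2744 and 1725 in MSTO-211H, 2973, 3218 and 2958 in H2452 and 1987 and 2038 in H2052. It was lower throughout in H2052 only, and in H28 2 of the 3 palbociclib libraries were above all DMSO libraries. Its change over the 11 pairs was within the spread (-0.08 ± 0.09 (SE), adjusted p = 0.45), its sign turned with median-of-ratios (0.09) and upper-quartile scaling (0.03), and 76.9% of its exon length is shared with a readthrough gene on the same strand. NBN, of the same complex (-0.25 ± 0.08 (SE), adjusted p = 0.0149), and RBBP8, which starts resection (-0.51 ± 0.09 (SE), adjusted p = 0.000593), changed by less than the threshold.

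Of the 7 genes that process joint molecules, 4 were lower, with a median of -0.65. BLM (ENSG00000197299, chromosome 15 from 90717346 to 90816166, plus strand), the helicase of the dissolvasome, was at 731, 660 and 672 CP20M in H28, 162, 126 and 329 in MSTO-211H, 290, 249 and 337 in H2452 and 240 and 101 in H2052 in DMSO. With palbociclib, BLM was at 243, 312 and 149 CP20M in H28, 71, 18 and 39 in MSTO-211H, 32, 39 and 26 in H2452 and 79 and 37 in H2052. The conditions were separate in every line, with a 4.03-fold lower level (-2.01 ± 0.21 (SE), adjusted p = 9.92e-06). SLX4, a scaffold for nucleases, was at 637, 544 and 552 CP20M in H28, 593, 335 and 538 in MSTO-211H, 621, 456 and 516 in H2452 and 599 and 524 in H2052 in DMSO. With palbociclib, SLX4 was at 444, 434 and 386 CP20M in H28, 651, 452 and 590 in MSTO-211H, 451, 375 and 431 in H2452 and 434 and 485 in H2052. It was lower in H2052, H2452 and H28 without overlap, while in MSTO-211H the conditions overlapped, and the change did not pass the test (-0.20 ± 0.09 (SE), adjusted p = 0.0875). RMI1 (-1.19 ± 0.17 (SE), adjusted p = 8.81e-05) and RMI2 (-0.65 ± 0.20 (SE), adjusted p = 0.0143), partners of BLM, and the resolvase gene GEN1 (-0.78 ± 0.10 (SE), adjusted p = 5.19e-05) were called lower. The nuclease gene MUS81 separated in all 4 lines but its fall was just short of the fold threshold (-0.58 ± 0.08 (SE), adjusted p = 6.46e-05), and its partner EME1 had a smaller change (-0.38 ± 0.13 (SE), adjusted p = 0.0262).

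Of the 5 damage checkpoint genes, 2 were lower, with a median of -0.39. CHEK1 (ENSG00000149554, chromosome 11 from 125625163 to 125676255, plus strand), the kinase that delays mitosis, was at 1210, 1128 and 1129 CP20M in H28, 440, 344 and 663 in MSTO-211H, 738, 715 and 800 in H2452 and 1077 and 682 in H2052 in DMSO. With palbociclib, CHEK1 was at 812, 797 and 724 CP20M in H28, 372, 257 and 280 in MSTO-211H, 300, 417 and 235 in H2452 and 685 and 558 in H2052. It was separate in H2452 and H28 and overlapped in H2052 and MSTO-211H (-0.75 ± 0.13 (SE), adjusted p = 0.000371). TOPBP1, an activator of ATR, had a change just past the fold threshold (-0.60 ± 0.10 (SE), adjusted p = 0.000347). ATM, the kinase of double-strand breaks, was at 1933, 2190 and 1971 CP20M in H28, 2649, 2163 and 2270 in MSTO-211H, 3322, 3512 and 2846 in H2452 and 2267 and 2484 in H2052 in DMSO. With palbociclib, ATM was at 2294, 2366 and 2124 CP20M in H28, 1616, 2486 and 1830 in MSTO-211H, 3741, 4043 and 3494 in H2452 and 2704 and 3118 in H2052. In H2052 both palbociclib libraries were above both DMSO libraries, in the other lines the conditions overlapped, and the change was within the spread (0.08 ± 0.09 (SE), adjusted p = 0.47). ATR, the kinase of stalled forks, was also near 0 (-0.09 ± 0.07 (SE), adjusted p = 0.305), with a sign that turned under median-of-ratios (0.09) and upper-quartile scaling (0.03), and CHEK2, a target of ATM, changed by less than the threshold (-0.39 ± 0.09 (SE), adjusted p = 0.00366).

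The 4 sensitive lines were also fitted alone. In H2452, 29 members were called lower and 0 higher (10.8% of all genes lower and 6.04% higher), with a median of -1.10. In H28 there were 19 lower and 0 higher (7.34% and 5.89%), with a median of -0.74. In H2052 there were 18 lower and 0 higher (13% and 4.67%), with a median of -0.77, and in MSTO-211H 9 lower and 0 higher (7.94% and 5.9%), with a median of -0.48. BARD1, BLM, BRCA2, EXO1, FANCD2, FANCG and UBE2T were called in all 4 lines, and 7 members each were called in 3 and in 2 lines, 12 in 1 and 9 in none. H2452 had the largest fall of the 4 lines for 30 of the 42 members, and MSTO-211H the smallest for 22. With no block for the experiment, the counts were 3 in H2052 and 2 in MSTO-211H. Leaving out any 1 pair of H28 or MSTO-211H, or replicate 1 or 3 of H2452, left 0 called, while H2452 without replicate 2 kept 23. All-gene shares of these reduced fits are not given here, so a loss of calls is not particular to the members.

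Whether the response differed among the sensitive lines was tested with an F test, which called 19 of the 42 members, against 37.1% of all genes. This share is not far above that of all genes. With no block for the experiment the F test called 8. Of these 19, 11 were also called lower over the 11 pairs, and 8 were not, which were EME1, FANCF, NBN, PALB2, RAD50, RAD51C, RAD51D and SLX4. The lowest p was that of HELLS, which was at 3618, 2889 and 3349 CP20M in H28, 697, 397 and 912 in MSTO-211H, 1240, 1194 and 1263 in H2452 and 1959 and 872 in H2052 in DMSO. With palbociclib, HELLS was at 1525, 1738 and 1311 CP20M in H28, 629, 449 and 510 in MSTO-211H, 127, 173 and 141 in H2452 and 511 and 264 in H2052. In MSTO-211H the palbociclib values lay among the DMSO values, and in the other lines they were all lower. The fold changes of HELLS were -1.11 in H28, -0.27 in MSTO-211H, -2.99 in H2452 and -1.80 in H2052 (F test, limma adjusted p = 0.00023). BRIP1 was at 1241, 917 and 1066 CP20M in H28, 276, 143 and 374 in MSTO-211H, 438, 364 and 408 in H2452 and 775 and 354 in H2052 in DMSO. With palbociclib, BRIP1 was at 341, 300 and 251 CP20M in H28, 172, 50 and 125 in MSTO-211H, 62, 75 and 40 in H2452 and 394 and 232 in H2052. The conditions were separate in H2452 and H28, and the fold change of BRIP1 ran from -0.77 in H2052 to -2.61 in H2452 (limma adjusted p = 0.00402). BARD1, with the values above, had a fold change of -3.21 in H2452 and -1.35 in MSTO-211H (limma adjusted p = 0.00408). RAD51D was at 748, 605 and 681 CP20M in H28, 803, 720 and 700 in MSTO-211H, 462, 360 and 395 in H2452 and 503 and 405 in H2052 in DMSO. With palbociclib, RAD51D was at 745, 613 and 723 CP20M in H28, 704, 822 and 635 in MSTO-211H, 255, 229 and 225 in H2452 and 423 and 385 in H2052. It was lower throughout in H2452 (fold change -0.75) and overlapped in the other 3 lines (limma adjusted p = 0.00525). RAD50 had a fold change of 0.34 in H28 and of -0.35 in MSTO-211H (limma adjusted p = 0.00727). By role, the F test called 5 of 6 BRCA proteins and mediators, 2 of 5 in the paralog complexes, 3 of 4 strand exchange helpers, 2 of 9 core complex genes, 1 of 2 in the ID complex, 2 of 4 in end resection, 4 of 7 in junction processing and 0 of 5 checkpoint genes.

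**Figure D3:**
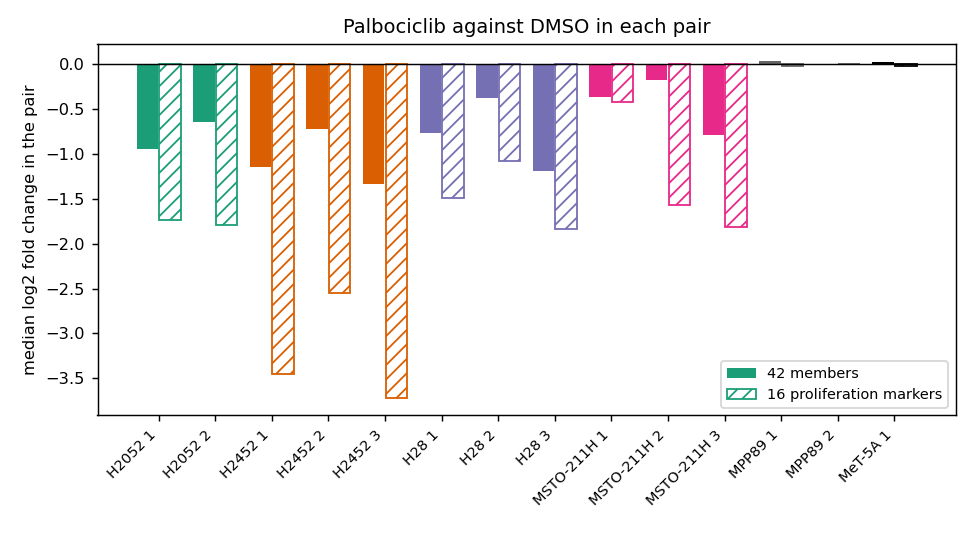
Median log2 fold change for palbociclib against DMSO (y axis) of the 42 members (filled bars) and of the 16 proliferation markers (hatched bars) in each of the 14 pairs (x axis), coloured by line. The longest bars are those of H2452 replicate 3, with -1.33 for the members and -3.72 for the markers, followed for the members by H28 replicate 3 with -1.19, and the bars are near 0 in MPP89 and MeT-5A.

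The medians of the members by pair were -0.77, -0.38 and -1.19 in H28, -0.37, -0.18 and -0.80 in MSTO-211H, -1.15, -0.72 and -1.33 in H2452 and -0.95 and -0.65 in H2052. The last pair listed for each line was treated for 10 days and the others for 9. That pair had the deepest median in H28, MSTO-211H and H2452 but not in H2052. Duration and experiment cannot be told apart here. The medians of the proliferation markers in the same pairs were -1.49, -1.08 and -1.84 in H28, -0.42, -1.57 and -1.81 in MSTO-211H, -3.45, -2.55 and -3.72 in H2452 and -1.74 and -1.79 in H2052. The line with the deepest fall of the markers, H2452, was also that with the deepest fall of the members. By pair the orders differed. H28 replicate 3 (markers -1.84, members -1.19) had a deeper fall of the members than H2452 replicate 1 (-3.45 and -1.15). The pair that contains the low DMSO library of MSTO-211H, replicate 2, had the smallest fall of the members (-0.18), with 26 of 42 below DMSO. Its markers changed by -1.57, which was not their smallest fall.

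In the resistant lines, no member was called lower or higher (limma), as was the case for all genes (0% and 0%). At an unadjusted p below 0.05 there were 2 members and 1258 of all genes. The median log2 fold change of the members was 0.03, with a range of -0.09 to 0.18. EXO1 was at 961 and 949 CP20M in DMSO and 973 and 931 with palbociclib in MPP89, and at 1500 and 1633 in MeT-5A. BARD1 was at 530 and 551 CP20M in DMSO and 484 and 501 with palbociclib in MPP89, and at 1380 and 1412 in MeT-5A. Of the 126 values (42 members in 3 pairs), 48 were lower under palbociclib. The largest difference in any pair was 0.28, for FANCE in MeT-5A, and no member changed by 1.5-fold in any of the 3 pairs. The proliferation markers had a median of -0.02 in these lines, and their summed level was 54266 to 56613 CP20M in DMSO and 54448 to 56429 with palbociclib in MPP89, and 82870 and 82970 in MeT-5A.

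The difference between the responses of the sensitive and the resistant lines was tested directly. The units of this test were the pairs and not the lines, so its p-values do not measure the spread between lines of a class. It was called for 17 members, all lower in the sensitive lines, against 5.62% of all genes lower and 1.13% higher. The largest were those of EXO1 (-2.45 ± 0.42 (SE), adjusted p = 0.00354), BLM (-2.10 ± 0.41 (SE), adjusted p = 0.00791) and BARD1 (-1.96 ± 0.45 (SE), adjusted p = 0.0159). Of the 17, 16 were also called over the 11 pairs, and the other was MUS81 (-0.65 ± 0.15 (SE), adjusted p = 0.0172). BRCA1 (-1.08 ± 0.37 (SE), adjusted p = 0.0747), XRCC2 (-1.21 ± 0.43 (SE), adjusted p = 0.0846) and HELLS (-1.51 ± 0.59 (SE), adjusted p = 0.113) were called over the 11 pairs but not here. The resistant lines have 3 pairs, and the count was 4 without either pair of MPP89 and 3 without that of MeT-5A. What share of all genes those reduced fits called is not given here.

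**Figure D4:**
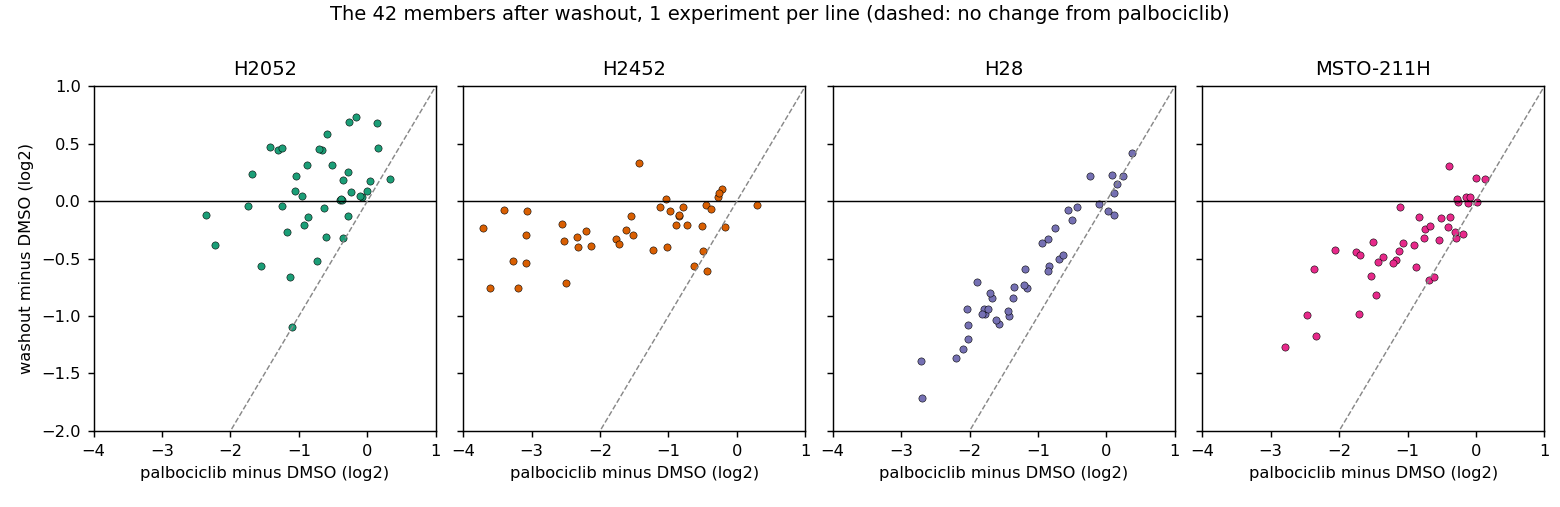
Log2 difference of CP20M + 10 of palbociclib minus DMSO (x axis) and of washout minus DMSO (y axis) for the 42 members (points), in a panel for each of the 4 sensitive lines. Points above the dashed line were higher after washout than under palbociclib (37 in H28, 37 in MSTO-211H, 39 in H2452 and 41 in H2052), and points below 0 on the y axis were lower than in DMSO.

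After 48 hours of washout, 10 members were higher than under palbociclib and 0 were lower, over the 4 lines, where 1.4% of all genes were higher and 0% lower. The median log2 difference of the members was 0.76 and that of all genes 0.09. The 10 were BRCA2, XRCC2, RAD51AP1, RAD54B, FANCE, FANCG, UBE2T, FANCD2, EXO1 and BLM, and all 10 had been called lower over the 11 pairs. EXO1 was at 829, 118 and 309 CP20M in DMSO, palbociclib and washout in H28, 330, 56 and 216 in MSTO-211H, 504, 32 and 294 in H2452 and 215, 34 and 197 in H2052 (2.05 ± 0.26 (SE), adjusted p = 0.0119 for washout against palbociclib). RAD51AP1 was at 397, 53 and 114 CP20M in DMSO, palbociclib and washout in H28, 349, 76 and 258 in MSTO-211H, 391, 28 and 371 in H2452 and 197, 67 and 277 in H2052 (1.96 ± 0.38 (SE), adjusted p = 0.0415). In H2052 it ended above the DMSO library of the same experiment but below the 421 CP20M of DMSO replicate 1, and in H28 it stayed below all DMSO libraries. BARD1 was at 1255, 267 and 480 CP20M in DMSO, palbociclib and washout in H28, 277, 75 and 201 in MSTO-211H, 515, 30 and 436 in H2452 and 251, 68 and 243 in H2052 and missed the threshold (1.83 ± 0.38 (SE), adjusted p = 0.0502). BLM was at 672, 149 and 269 CP20M in DMSO, palbociclib and washout in H28, 329, 39 and 131 in MSTO-211H, 337, 26 and 232 in H2452 and 101, 37 and 143 in H2052 (1.70 ± 0.35 (SE), adjusted p = 0.0491). BRIP1 was at 1066, 251 and 552 CP20M in DMSO, palbociclib and washout in H28, 374, 125 and 290 in MSTO-211H, 408, 40 and 384 in H2452 and 354, 232 and 535 in H2052 and missed the threshold (1.60 ± 0.36 (SE), adjusted p = 0.0688). These 5 had the largest differences, and each was higher after washout than under palbociclib in 4 of 4 lines. The same held for 34 of the 42 members, whereas 5 were higher in 3 lines, and ATM, FANCF and RAD50 in 1. Such counts of lines are not given here for all genes. Each line has a single washout experiment, and the count was 0 without H2052, H2452 or MSTO-211H, 1 without H28 and 0 with no line as block. The proliferation markers were higher as well, with 10 of 16 called and a median of 1.95. Their part in the change of the members was not tested.

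Compared with DMSO, 1 member was lower after washout and 0 were higher, against 2.95% of all genes lower and 2.81% higher, and the median of the members was -0.28. That member was FANCE, which was at 83, 15 and 47 CP20M in DMSO, palbociclib and washout in H28, 214, 71 and 117 in MSTO-211H, 137, 33 and 107 in H2452 and 104, 29 and 67 in H2052 (-0.61 ± 0.16 (SE), adjusted p = 0.0387). It was lower than DMSO in 4 of 4 lines, but the call was lost without H2052, H2452 or MSTO-211H and with no line as block, each of which left 0. In all, 8 members were lower than DMSO in every line, namely BARD1, EXO1, FANCD2, FANCE, MUS81, RAD51C, RMI1 and UBE2T. The share of all genes that were lower in every line is not given here, and of these 8 only FANCE was called. With 1 washout library per line, a difference among lines in the return of the members was not tested, and the values depend on the DMSO library of that experiment, which was the lower one in H2052 and the highest in MSTO-211H. In H2052 the median was 0.06 against DMSO replicate 2 and 15 of 42 members were below it. The summed level of the members there was 23790 CP20M after washout, against 22780 in DMSO replicate 2 and 31958 in replicate 1. In MSTO-211H that sum was 23362 CP20M after washout, against 25149, 22228 and 28603 in DMSO. It was below every DMSO library in H28 (28512 CP20M, against 39349 to 42501) and in H2452 (26709, against 28645 to 31660). In H2452 the median was -0.23 with 37 below, in MSTO-211H -0.35 with 36 below, and in H28 -0.72 with 36 below. Against palbociclib, the medians were 0.51 in H28, 0.51 in MSTO-211H, 1.15 in H2452 and 0.72 in H2052, after medians under palbociclib of -1.19, -0.80, -1.33 and -0.65 in the same experiments. The summed proliferation markers after washout were 31985 CP20M in H28, 28647 in MSTO-211H, 36152 in H2452 and 32240 in H2052, which in H28 is below every DMSO library. FANCF did not follow the other members. It was at 270, 291 and 284 CP20M in DMSO, palbociclib and washout in H28, 478, 294 and 293 in MSTO-211H, 317, 231 and 204 in H2452 and 462, 209 and 211 in H2052, with a difference of -0.05 ± 0.19 (SE), adjusted p = 0.959 from palbociclib and of -0.58 ± 0.19 (SE), adjusted p = 0.0727 from DMSO.

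**Figure D5:**
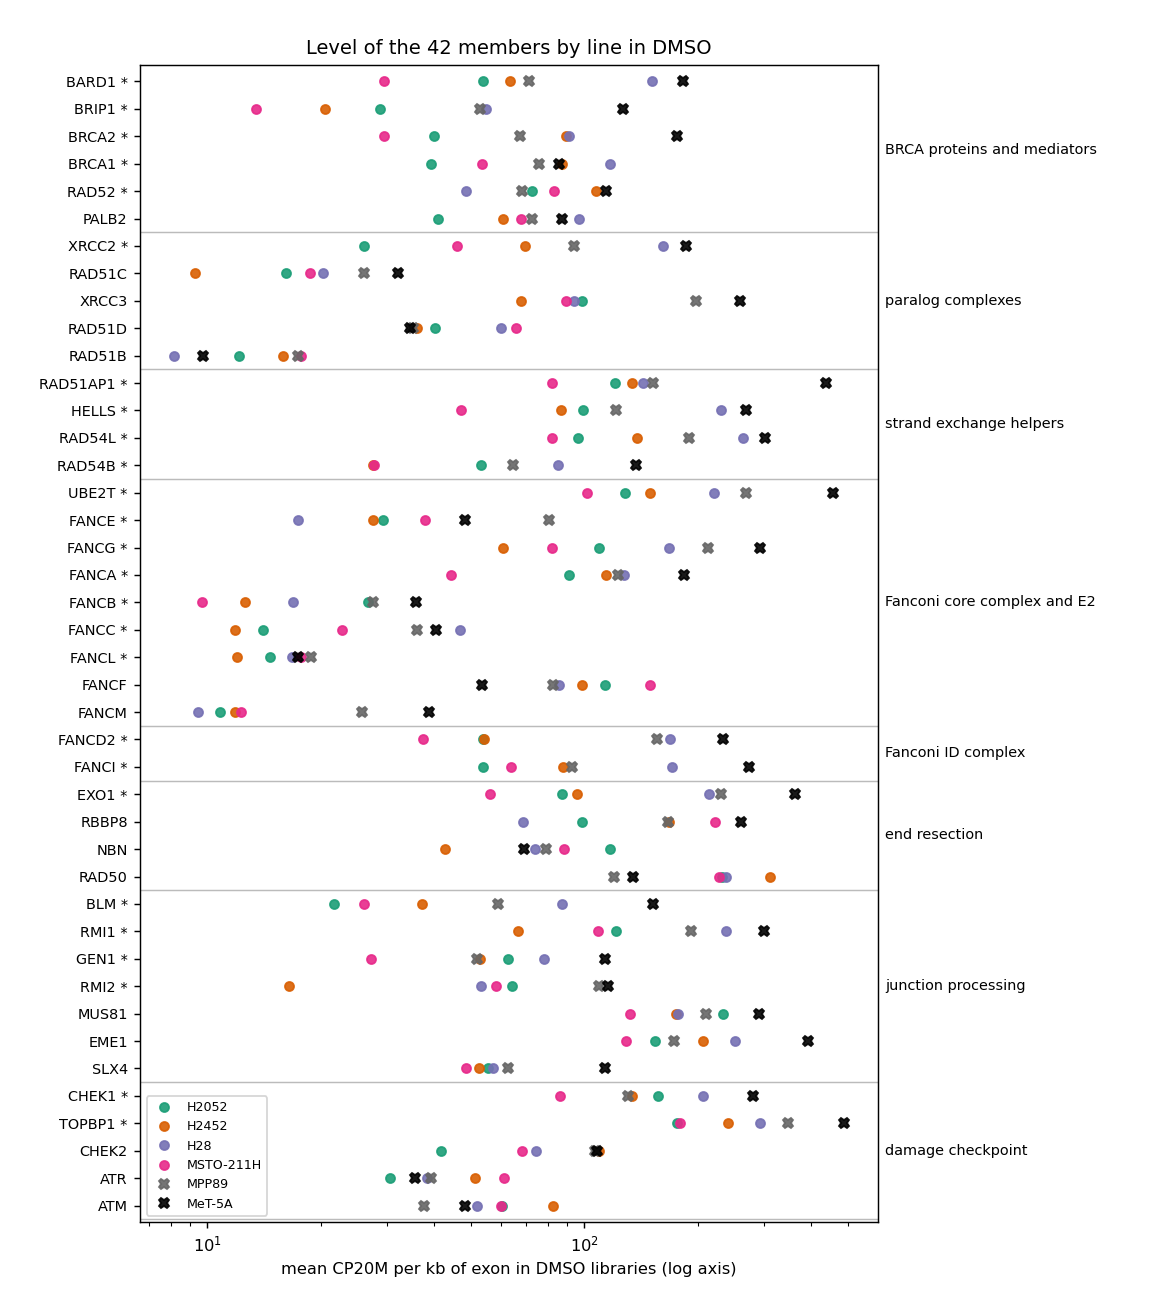
Mean level in the DMSO libraries in CP20M per kb of exon (x axis, log scale) of each of the 42 members (y axis, grouped by role, a star marks a member called lower over the 11 pairs), with a point for each line, circles for the sensitive and crosses for the resistant lines. The black crosses of MeT-5A are rightmost for 29 of the 42 members.

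The level of the members before treatment was compared among the 6 lines in DMSO. The F test called 42 of 42, against 95.6% of all genes, so this share is close to that of all genes. Per kb of exon, the median over the members was 58.1 CP20M in H2052, 59.2 in MSTO-211H, 67.4 in H2452, 81.7 in MPP89, 89.2 in H28 and 136 in MeT-5A. MeT-5A was the highest line for 29 members, MSTO-211H for 4, H2452 and H28 for 3 each, MPP89 for 2 and H2052 for 1. MSTO-211H was the lowest line for 16. How often each line was highest or lowest over all genes is not given here. Per kb and by the median of the 6 lines, TOPBP1 had the highest level (266 CP20M), followed by RAD50 (230) and MUS81 (194), and FANCM the lowest (12.1). Exon length here joins all annotated exons of a gene (37977 bases for FANCL) and is not the length of its mRNA. The order of genes therefore depends on the annotation too. The span between the highest and the lowest line was widest for BRIP1, at 9.75-fold, and narrowest for FANCL, at 1.55-fold, with a median of 3.74-fold on the CP20M + 10 scale. The untreated MeT-5A library differed from the DMSO one by a median of 0.12 on the log2 scale, from -0.42 for RAD50 to 1.16 for RAD51B.

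The 5 members with the lowest p in that F test were FANCC, RBBP8, BARD1, RMI2 and RMI1. FANCC in DMSO was at 745 CP20M in MeT-5A, 599 and 727 in MPP89, 981, 783 and 835 in H28, 415, 366 and 483 in MSTO-211H, 242, 219 and 196 in H2452 and 316 and 203 in H2052. H28 was highest, then MeT-5A, MPP89 and MSTO-211H without overlap, and H2052 and H2452 were lowest and overlapped. RBBP8 in DMSO was at 1318 CP20M in MeT-5A, 798 and 892 in MPP89, 403, 345 and 302 in H28, 943, 1172 and 1261 in MSTO-211H, 807, 763 and 980 in H2452 and 576 and 427 in H2052. MeT-5A was highest, MSTO-211H, H2452 and MPP89 overlapped below it, and H2052 and then H28 were lowest. BARD1 in DMSO was at 530 and 551 CP20M in MPP89 and 1380 in MeT-5A, besides the values of the sensitive lines given above. MeT-5A, H28 and MPP89 were in this order without overlap, and H2452 lay below MPP89. H2052, at 567 and 251 CP20M, spanned the values of MPP89 and H2452 and overlapped with MSTO-211H. RMI2 in DMSO was at 418 CP20M in MeT-5A, 342 and 446 in MPP89, 156, 153 and 267 in H28, 166, 189 and 276 in MSTO-211H, 57, 51 and 71 in H2452 and 248 and 217 in H2052. MeT-5A and MPP89 overlapped at the top, H2052, MSTO-211H and H28 overlapped below, and H2452 was lowest. RMI1 in DMSO was at 1027 CP20M in MeT-5A, 589 and 722 in MPP89, 906, 762 and 762 in H28, 393, 301 and 418 in MSTO-211H, 222, 194 and 270 in H2452 and 525 and 306 in H2052. MeT-5A, H28 and MPP89 were in this order, H2052 and MSTO-211H overlapped, and H2452 was lowest. The place of MeT-5A in these orders rests on 1 DMSO library. Its untreated library, at 812 CP20M for FANCC and 858 for RMI1, lay within the DMSO range of H28. For RBBP8 it was at 1258 CP20M, within the range of MSTO-211H. For BARD1 (1279) and RMI2 (415) the untreated library kept the place of the DMSO one.

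Members were higher on average in the resistant than in the sensitive lines for 36 of 42, with a median log2 difference of 0.89, and the median of all genes was 0.15. This is a description, since the resistant lines are only MPP89 and MeT-5A. Every resistant DMSO library was above every sensitive one for XRCC3, FANCE, FANCG, FANCM, RMI2 and TOPBP1, and below for RAD50 and ATM. The share of all genes that were higher or that separated in this way is not given here. FANCE in DMSO was at 403 and 350 CP20M in MPP89 and 225 in MeT-5A, and between 64 and 214 in the sensitive lines. RAD50 was at 1204 and 1335 CP20M in MPP89 and 1424 in MeT-5A, and between 2055 and 3343 in the sensitive lines.

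Other genes of these pathways were followed in a list of 53, of which 52 were tested. Over the 11 pairs 17 were lower and 0 higher, with a median of -0.39 (9.37% of all genes lower), and those with the largest falls were the checkpoint mediator gene CLSPN (-1.90), the FANCD2 deubiquitinase gene USP1 (-1.20), the resection nuclease gene DNA2 (-1.14) and the single-strand binding protein gene RPA3 (-1.14). In the difference between sensitive and resistant lines 11 were lower (5.62% of all genes), and in the resistant lines alone 0 were called (limma, 4 at an unadjusted p below 0.05). After washout, CLSPN (2.16), USP1 (0.91) and TIMELESS (0.77) were higher than under palbociclib, beside 1.4% of all genes. RPA3 (-0.92), ABRAXAS1 (-0.75) and UIMC1 (-0.61) were lower than in DMSO, beside 2.95% of all genes. Of 15 genes of end joining, the other route of break repair, 5 were lower over the 11 pairs, with a median of -0.46, again beside 9.37% of all genes. These were POLQ (-1.79), PARP1 (-0.75), PAXX (-0.75), LIG3 (-0.70) and RIF1 (-0.62). After washout 0 of the 15 were called against palbociclib (limma, 7 at an unadjusted p below 0.05). Of all 17803 genes, 1.4% were called higher there and 2322 had an unadjusted p below 0.05 (limma). LIG3 (-0.65) and PARP1 (-0.59) were lower than in DMSO, again beside 2.95% of all genes.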

How the data were processed

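Total RNA of 6 cell lines had been made into directional libraries and sequenced as paired-end reads. The submitters' processing notes name Trimmomatic 0.36, STAR 2.5.3, HTSeq 0.9.1 and DESeq2 (version not given in the sources used here), with GRCh38 as the genome. The authors counted reads per gene with Ensembl release 90 and normalized each library to 20000000 reads (counts per 20000000 reads, CP20M). What was deposited is thus a normalized score, rounded up to whole values, and no longer a read count, so no count model was used.

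The 17803 genes that reached 100 CP20M in any library were put on the log2(CP20M + 10) scale and fitted in limma 3.58.1 (R 4.3.3), where lmFit was followed by eBayes using a trend. Calls needed a Benjamini-Hochberg FDR below 0.05 over all genes tested and, except in F tests, a fold change above 1.5 or below 1/1.5. The experiment was a block, as the study pairs treated and control samples within each experiment. Deviations from the group means of same-numbered DMSO and palbociclib libraries correlated across genes with r from 0.181 to 0.783. For washout, the line was the block. Fold changes understate the change of genes with low values.

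The members and gene lists were chosen with earlier results of these data known, and the study itself shows some of the members among DNA repair genes chosen with these lines included, so a fall of the set is not independent evidence. Values of every library are given for the members with the largest and the smallest change in each role, the 5 with the lowest p in either F test, the 5 with the largest change after washout and the member called against DMSO. All other members are given with their fold change. Other genes of the pathway are given as counts, with those of largest change named.

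Alternatives tried were dropping each pair or line, no block, the means of lines as units, upper-quartile or median-of-ratios scaling, pseudocounts of 1 or 50, eBayes without trend, and no filter or one applied within each fit. The functions were tested on simulated data. Positions and exon lengths are from GENCODE 44, and promoters are from RefSeq (GRCh38.p14). By that annotation, 17 members share over 5% of their exon length with another gene. Tables and plots were made with Python 3.11.15, pandas 2.3.3 and matplotlib 3.10.9.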

Additional observations from a re-analysis of the deposited data

Results flagged for a closer look

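The response to palbociclib differed between the sensitive and the resistant lines, by a test of the difference itself (limma, adjusted p below 0.05), for 17 members, against 5.62% of all genes lower and 1.13% higher. The count was 4 without either pair of MPP89 and 3 without that of MeT-5A. Pairs and not lines were the units, so the adjusted p does not measure the spread between lines of a class. On the log2 scale the difference was -2.45 for EXO1, -2.10 for BLM, -1.96 for BARD1, -1.88 for RAD51AP1, -1.78 for UBE2T, -1.71 for FANCD2, -1.67 for BRCA2, -1.65 for BRIP1 and -1.43 for FANCE. It was -1.41 for FANCI, -1.39 for RAD54L, -1.15 for RMI1, -1.13 for FANCG, -0.92 for RAD54B, -0.86 for GEN1, -0.80 for FANCC and -0.65 for MUS81.

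The response differed among the 4 sensitive lines (F test in limma) for 19 members, against 37.1% of all genes, and for 8 members with no replicate block. With the block, the share of the members was not far above that of all genes. The adjusted p was 0.00023 for HELLS, 0.00402 for BRIP1, 0.00408 for BARD1, 0.00525 for RAD51D, 0.00727 for RAD50, 0.00747 for PALB2, 0.00962 for NBN and 0.0108 for FANCF. It was 0.0129 for FANCI, 0.0141 for RAD52, 0.0168 for FANCA and for SLX4, 0.0183 for EME1, 0.0235 for RAD51C, 0.025 for RMI2, 0.0275 for BRCA1, 0.0297 for RAD54L, 0.0298 for RMI1 and 0.0425 for RAD51AP1. HELLS, BRIP1, BARD1, FANCI, RAD51D, BRCA1, RAD54L, RMI1, RAD51AP1, FANCA, RMI2, EME1 and PALB2 had their deepest fall in H2452. RAD50, PALB2, NBN, FANCF and RAD51D had fold changes of 0.34, 0.11, 0.06, 0.02 and 0.03 in H28, against negative values in the other 3 lines.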

How the results depend on the processing

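Of 1008 fold changes of the 42 members over 24 alternatives, 949 kept their direction and their side of the threshold, 43 of 6 called members (CHEK1, FANCC, FANCL, RAD52, RMI2 and TOPBP1) no longer passed it, 11 newly passed it, and 20 of the 26 called members passed under every alternative. The fold change of RAD50 turned positive with median-of-ratios scaling (0.089), upper-quartile scaling (0.031) and without MSTO-211H (0.016), and that of ATR with median-of-ratios (0.085) and upper-quartile scaling (0.028). The cause was not tested. The count over the 11 pairs was 20 to 28 under all alternatives, and 26 with no replicate block.

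In H2052 the count of 18 was 8 with a pseudocount of 1, 4 with no filter, 0 with eBayes without trend and 3 with no replicate block, and no fit was possible with 1 pair left out. In MSTO-211H the count of 9 was 0 with no filter, 15 with the filter within the fit, 4 with median-of-ratios scaling and 2 with no replicate block. Leaving out 1 pair gave 0 to 23 in H2452, 0 to 0 in H28 and 0 to 0 in MSTO-211H. The difference between sensitive and resistant lines gave 3 to 22 calls with 1 pair left out. The F test among the sensitive lines gave 8 with no replicate block and 13 to 23 with 1 pair left out.

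Washout against palbociclib gave 6 with a pseudocount of 50, 5 with no filter, 4 with median-of-ratios scaling, 5 with upper-quartile scaling, 6 with eBayes without trend, 0 with no replicate block and 0 to 1 with 1 line left out. Washout against DMSO gave 0 with a pseudocount of 1 or 50, no filter, median-of-ratios or upper-quartile scaling or no replicate block, and 0 to 1 with 1 line left out. The block changed no other call count by over 1.5 times. Single-line and washout counts rest on 2 to 4 pairs or lines, and reads per library limit members below about 30 CP20M.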
